A study of Mus musculus with 36 samples.

Results

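The proteins of the mitochondrial ribosome were followed at the transcript level in C2C12 myotubes, a mouse muscle cell line fused into contractile fibres, after knockdown of the long non-coding RNA Tug1 and after electrically evoked contraction. Members were the protein-coding genes named Mrpl or Mrps followed by a number that reached at least 1 CPM (a count scaled to a fixed library total) in at least 12 of the 36 libraries. Of 78 such genes, 77 passed, 48 named for the large subunit (Mrpl) and 29 for the small subunit (Mrps), among 13995 genes that passed in all. The remaining gene, Mrpl53, had 0 counts in every library. Myotubes were differentiated for 4 days, having received an antisense locked nucleic acid (LNA) oligonucleotide on day 3, one that targets Tug1 (Tug1 KD) or a control one without that target, so every group carried a transfected LNA and no untransfected group was analysed here. Each LNA was combined with Rest, with electrical pulse stimulation for 3 h and harvest at once (EPS 0h), or with the same stimulation and 3 h of recovery (EPS 3h), giving 6 groups of 6 libraries. Stimulation was set at 13 V and 66 Hz, with pulses of 2 ms, alternating 5 s of pulses with 5 s of pause, while Rest wells held unconnected electrodes for the same time. The labels give no Rest plate kept for the recovery period, so the effect of EPS at 3h and that of the added time cannot be told apart, and 1 oligonucleotide per arm does not separate loss of Tug1 from other effects of that oligonucleotide.

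Mitochondria keep their own ribosome, which translates the few proteins encoded by mitochondrial DNA, all of them core subunits of the respiratory chain and ATP synthase. Its RNAs come from mitochondrial DNA, but all of its proteins are encoded in the nucleus, made in the cytosol and imported, so supply of its parts depends on nuclear transcription. Muscle relies on this machinery because contraction draws on oxidative phosphorylation, and transcription factors of the NRF1, ETS (GABPA) and YY1 families are known to bind promoters of many nuclear genes for mitochondrial proteins. The names follow history rather than structure throughout: the products of Mrps30 and Mrps18a are placed in the large subunit, and that of Mrps36 is now regarded as part of the α-ketoglutarate dehydrogenase complex.

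Libraries held 17005100 to 24181200 counts on genes, and a member had between 33 and 2702 counts in a library. Levels are CPM scaled by TMM, a factor per library that centres most genes. Changes are log2 fold changes (log2FC) from edgeR's quasi-likelihood test over all 13995 genes, with its Benjamini-Hochberg false discovery rate (FDR). The standard error (SE) was derived as the size of the log2FC divided by the square root of the test's F value. A gene was called higher or lower at an FDR under 0.05. Levels of a group are given as its lowest to its highest library, with the median of 6. Tug1 itself was at 38.6 to 58.3 (median 47.8) CPM in Rest Control and 23.97 to 33.3 (median 25.4) CPM in Rest Tug1-KD, with no overlap (log2FC -0.83 ± 0.17 SE, FDR 0.000915). At EPS 0h and EPS 3h the difference was -0.57 (FDR 0.0178) and -0.51 (FDR 0.0414) on the log2 scale, with overlap at both times. At EPS 0h Tug1 was at 55.05 to 80.6 (median 67.7) CPM in control and 29.5 to 61.9 (median 42.2) CPM in knockdown myotubes. At EPS 3h it was at 54.6 to 106.99 (median 76.98) and 40.01 to 84.6 (median 51.5) CPM. The median of EPS 3h Tug1-KD thus lay above that of Rest Control, so knockdown at EPS 3h is relative to control myotubes of the same state. Of 12 myotube markers, 11 averaged at least 1 CPM in each group and Tnnc2 did not. The labels number wells 1 to 6 and do not name the experiment, and the libraries numbered 1 to 3 and 4 to 6 differed within groups, so results are also given for each set.

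Summed over the 77 genes, levels of the groups lay within much the same range. The sum was 2425, 2795 and 2968 CPM (lowest, median and highest of 6) in Rest Control and 2253, 2904 and 3110.3 CPM in Rest Tug1-KD. It was 2619, 2678 and 2807 CPM in EPS 0h Control and 2352, 2582 and 2619 CPM in EPS 0h Tug1-KD. After recovery it was 2571, 2651 and 3271 CPM in EPS 3h Control and 2359, 2601 and 3151 CPM in EPS 3h Tug1-KD. Control and Tug1-KD overlapped at Rest and at EPS 3h, while at EPS 0h every knockdown library lay below every control library, the nearest of them by less than 1 CPM. The highest library in both EPS 3h groups was replicate 3. In bulk RNA, fewer cells of a type and less RNA per cell cannot be told apart.

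**Figure D1:**
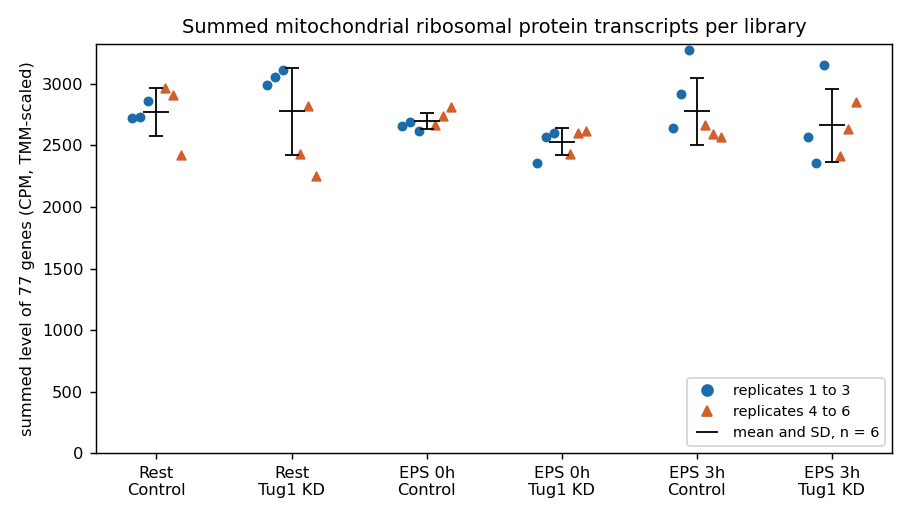
Summed level of the 77 genes in each library (y axis, CPM with TMM scaling, from 0) for the 6 groups (x axis), with replicates 1 to 3 as circles, replicates 4 to 6 as triangles and bars for the mean and SD (n = 6). In Rest Tug1-KD the circles (2991 to 3110.3 CPM) lie above the triangles (2253 to 2816 CPM), and in the other 5 groups the ranges of the sets overlap.

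Per kilobase of annotated exon (the union of all exons in GENCODE vM39, build GRCm39), levels in Rest Control spanned from 0.874 to 43.7 CPM per kb, with a median of 7.70. The median was 8.87 for large-subunit and 5.95 for small-subunit genes. Mrps23 stood highest at 43.7 ± 4.15 CPM per kb (SD, n = 6), followed by Mrpl28 at 34.2 ± 5.02, and the ranges of the pair overlapped (39.98 to 49.2 against 28.4 to 42.4). At the bottom were Mrps18c at 1.10 ± 0.464 and Mrpl33 at 0.874 ± 0.282 CPM per kb, whose ranges also overlapped. Long annotated isoforms lower the value of some genes (Mrpl33 has 14501 exon bases). Of the 77 genes, 33 shared over 10% of their exon bases with another annotated gene. The kit marks strand, but the strand setting of the counting is not given in the sources used here, so reads of such pairs may not be separated.

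The promoters of 68 of the 77 genes were found by symbol in a RefSeq table of 300-base windows (250 bases before to 50 after the start, from build GRCm38.p6), 74 windows in all. Each was searched on both strands for 3 short motifs: GCATGCGC (NRF1), CCGGAAGT (ETS factors) and ATGGCGGC (YY1), which do not contain one another. The NRF1 letters were in 10.8% of member windows, against 4.90% of windows of all genes tested and 2.71% of all 32851 windows. ETS letters were in 16.2% of member windows, against 7.61% and 3.89%, and YY1 letters in 14.9%, against 4.47% and 2.24%. At least 1 of the 3 was present in 26 of the 74 windows (35.1%), against 15.6% of windows of tested genes. These are matches of letters, not binding sites. The windows of 4 genes are shown because their genes carry the main differences below, Mrpl9 and Mrpl35 for knockdown and Mrps2 and Mrpl41 for EPS. Capitals mark the motif letters and each sequence is written 5′ to 3′ on the strand of its gene, with the GRCm39 position found by an exact and single match.
Mrpl9 (chr3:94350393-94350692, plus strand): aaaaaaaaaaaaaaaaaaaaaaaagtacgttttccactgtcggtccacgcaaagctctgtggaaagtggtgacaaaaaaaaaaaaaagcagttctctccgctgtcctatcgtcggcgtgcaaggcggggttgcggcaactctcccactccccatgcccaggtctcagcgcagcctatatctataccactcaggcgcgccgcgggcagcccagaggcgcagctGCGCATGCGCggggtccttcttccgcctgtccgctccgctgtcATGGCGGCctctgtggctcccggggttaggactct
Mrpl35 (chr6:71800719-71801018, minus strand): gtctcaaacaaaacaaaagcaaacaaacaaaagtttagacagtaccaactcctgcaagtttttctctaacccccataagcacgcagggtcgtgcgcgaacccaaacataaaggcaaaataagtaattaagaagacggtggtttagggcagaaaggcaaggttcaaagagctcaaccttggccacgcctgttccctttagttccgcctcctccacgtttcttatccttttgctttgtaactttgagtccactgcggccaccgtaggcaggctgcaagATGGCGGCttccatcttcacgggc
Mrps2 (chr2:28357828-28358127, plus strand): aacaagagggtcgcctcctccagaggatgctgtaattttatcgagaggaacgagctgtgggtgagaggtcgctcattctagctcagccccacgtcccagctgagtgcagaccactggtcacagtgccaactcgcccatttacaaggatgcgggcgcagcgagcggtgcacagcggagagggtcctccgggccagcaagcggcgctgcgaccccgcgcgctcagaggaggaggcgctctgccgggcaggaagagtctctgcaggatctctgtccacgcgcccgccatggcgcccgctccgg
Mrpl41 (chr2:24865061-24865360, minus strand): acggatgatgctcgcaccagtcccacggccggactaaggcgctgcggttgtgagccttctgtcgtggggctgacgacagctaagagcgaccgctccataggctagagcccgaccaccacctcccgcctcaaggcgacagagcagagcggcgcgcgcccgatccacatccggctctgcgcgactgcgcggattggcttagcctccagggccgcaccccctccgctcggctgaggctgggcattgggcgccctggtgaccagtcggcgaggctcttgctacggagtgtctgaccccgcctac
The Mrpl9 window holds the NRF1 letters on both strands, overlapping at bases -28 and -26 from the start, and the YY1 letters at base 16 (the start being base 1). In the Mrpl35 window the YY1 letters begin at base 27. The windows of Mrpl35 and Mrpl41 lie inside the GENCODE bounds of their genes (71785165-71803953 and 24862319-24865956). Sequence before the outermost annotated start was thus not searched for these genes. The windows of Mrps2 and Mrpl41, the genes with the smallest FDR in each direction at EPS 3h in control myotubes, hold none of the 3.

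Knockdown of Tug1 at Rest changed few of these genes. Mrpl9 was higher, and Mrpl35 and Mrps16, which encode a large- and a small-subunit protein, were lower. Thus 1 of 77 was higher (5.54% of all genes tested were) and 2 were lower (4.47% of all genes). The median log2FC of the 77 was -0.01, against -0.03 over all genes, and 41 of the 77 (53.2%, against 55.1% of all genes) lay below 0. The share of members called was below that of all genes in each direction. Without the filter on low counts 0 of the 3 passed.

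Mrpl35 (chromosome 6, 71785165-71803953, minus strand, GRCm39) was at 17.3 to 25.9 (median 19.98) CPM in Rest Control and 12.02 to 18.3 (median 17.5) CPM in Rest Tug1-KD (log2FC -0.35 ± 0.11 SE, FDR 0.0389). It was at 19.01 to 23.7 (median 21.4) CPM in EPS 0h Control and 13.3 to 18.2 (median 15.6) CPM in EPS 0h Tug1-KD (log2FC -0.45 ± 0.11 SE, FDR 0.00448). Every EPS 0h knockdown library was below every control library, while at Rest the groups touched. At EPS 3h the levels were 17.3 to 23.8 (median 19.04) CPM in control and 13.1 to 18.8 (median 14.4) CPM in knockdown myotubes (log2FC -0.35 ± 0.11 SE, FDR 0.0384), again with overlap. Mrpl35 was the member called in all 3 states, and 31.5% of its exon bases are shared with Reep1 on the other strand. In replicates 1 to 3 the difference at Rest was -0.11 and in replicates 4 to 6 it was -0.60.

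Mrps16 (chromosome 14, 20439372-20443713, minus strand), whose exons overlap no other gene, was at 26.2 to 34.98 (median 30.96) CPM in Rest Control and 18.6 to 29.8 (median 25.4) CPM in Rest Tug1-KD (log2FC -0.33 ± 0.11 SE, FDR 0.0452). At EPS 0h it was at 29.9 to 35.9 (median 31.4) CPM in control and 21.1 to 25.7 (median 23.9) CPM in knockdown myotubes (log2FC -0.44 ± 0.11 SE, FDR 0.00398). The EPS 0h groups did not overlap, and those at Rest did. At EPS 3h the means were 32.5 ± 4.60 and 26.2 ± 4.32 CPM (SD, n = 6 each) and the difference, -0.31 (FDR 0.055), did not pass.

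Mrpl9 (chromosome 3, 94350594-94358437, plus strand), a large-subunit protein, moved the other way. It was at 41.8 to 47.5 (median 44.04) CPM in Rest Control and 46.9 to 64.6 (median 52.9) CPM in Rest Tug1-KD (log2FC 0.28 ± 0.08 SE, FDR 0.0261), with overlap. At EPS 0h it was at 37.4 to 44.8 (median 39.9) CPM in control and 46.6 to 56.5 (median 51.6) CPM in knockdown myotubes (log2FC 0.35 ± 0.08 SE, FDR 0.00398), with no overlap. The means at EPS 3h were 45.1 ± 5.76 and 52.9 ± 4.60 CPM, a log2FC of 0.23 (FDR 0.0742) that did not pass. Replicates 1 to 3 gave a Rest difference of 0.41, and the other 3 gave 0.14.

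At EPS 0h, 1 member was higher in knockdown (8.25% of all genes were) and 2 were lower (6.07% of all genes). The median log2FC was -0.14 against -0.00 over all genes, with 59 of 77 (76.6%, against 50.5% of all genes) below 0. The median of the cytosolic ribosomal protein genes was -0.16 in the same comparison. At EPS 3h none was higher (6.38% of all genes) and 2 were lower (5.11% of all genes), Mrpl35 and Mrps35, with a median of -0.08 against -0.01. Higher members at EPS 3h numbered 1 at an unadjusted p under 0.05, and 1 by DESeq2 and 0 by limma-voom. Mrps35, a small-subunit protein, was at 17.7 to 22.3 (median 19.1) CPM in EPS 3h Control and 12.1 to 18.05 (median 16.4) CPM in EPS 3h Tug1-KD (log2FC -0.26 ± 0.09 SE, FDR 0.045), with overlap. Fitting the replicate number as a block gave 4 higher and 9 lower at EPS 0h and 3 higher and 7 lower at EPS 3h. For fits with another scaling, block, filter or choice of libraries, here and below, the share of all genes called was not counted. Deviations of same-numbered wells correlated above 0.1 in both states, but at EPS 3h only 2 of 6 correlated best with their own number. Without replicate 3 of the EPS 3h groups, 0 were higher and 1, Mrps35, was lower at EPS 3h, and 1 was higher and 1, Mrps16, lower at Rest.

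Genes with large differences are not always those that passed. At Rest, Mrpl1 had the largest positive difference, 0.38 (FDR 0.295), with 17.1 to 24.1 (median 19.1) CPM in Rest Control and 21.1 to 33.1 (median 25.2) CPM in Rest Tug1-KD. Mrps5 was next at 0.36 (FDR 0.174), with 34.3 to 38.2 (median 36.9) CPM in control and 39.6 to 53.1 (median 47.1) CPM in knockdown myotubes and no overlap between them. Both encode subunit proteins, and their spread in the other groups was wide (for Mrpl1, 18.3 to 37.6 CPM in EPS 3h Control).

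**Figure D2:**
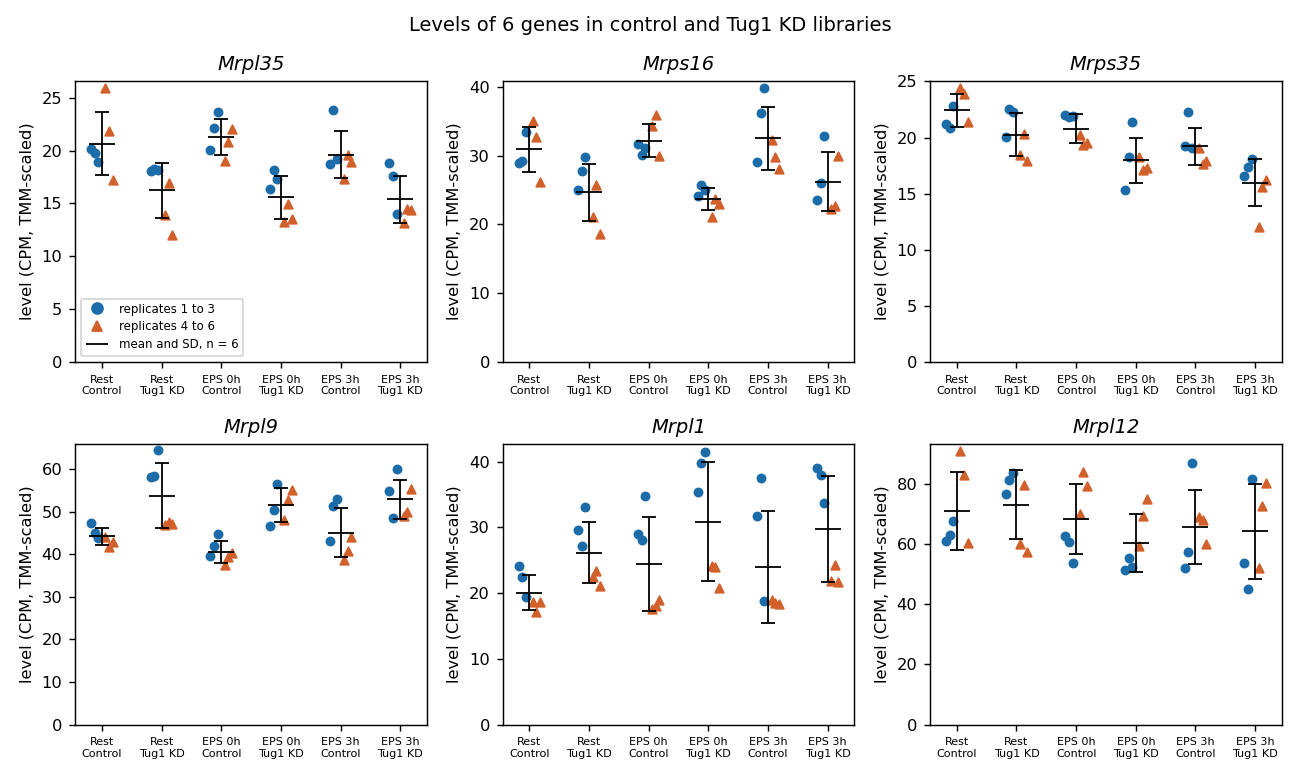
Level of 6 genes (y axis, CPM with TMM scaling, from 0) in each library of the 6 groups (x axis), with replicates 1 to 3 as circles, replicates 4 to 6 as triangles and bars for the mean and SD (n = 6). Mrpl35, Mrps16 and Mrps35 have lower means and Mrpl9 and Mrpl1 higher means in Tug1 KD at each state, whereas for Mrpl12 the means differ by less than the SD.

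EPS changed more of them, in both directions. In control myotubes at EPS 3h, 5 of 77 were higher than at Rest (26.1% of all genes tested were) and 7 were lower (25.9% of all genes), so the share of members called was below that of all genes in each direction. The higher genes were Mrps2, Mrps6, Mrpl39, Mrpl32 and Mrps7, and the lower genes were Mrpl41, Mrpl55, Mrpl24, Mrps34, Mrpl10, Mrps35 and Mrpl43. The median log2FC was -0.05 against -0.02 over all genes, with the interquartile range of members from -0.15 to 0.11 and that of all genes from -0.36 to 0.36. These counts depended on the scaling: by library size alone, which lowered the median of all genes by 0.17, 2 were higher and 32 lower. With the replicate block (deviations of same-numbered wells correlated above 0.1), 9 were higher and 15 lower. Without replicate 3 of the EPS 3h groups, 6 were higher and 14 lower. Since the share of all genes called in these fits was not counted, their counts are not set against a background.

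Mrps2 (chromosome 2, 28358049-28364580, plus strand), a small-subunit protein, was at 39.2 to 49.6 (median 41.5) CPM in Rest Control, 59.4 to 70.3 (median 62.5) CPM in EPS 0h Control and 59.4 to 80.8 (median 65.5) CPM in EPS 3h Control. Both EPS groups lay wholly above Rest and overlapped each other, with log2FC 0.57 ± 0.08 SE, FDR 5.14e-07 at EPS 0h and log2FC 0.65 ± 0.08 SE, FDR 1.92e-08 at EPS 3h. In knockdown myotubes it was at 38.5 to 46.9 (median 42.2), 54.9 to 69.6 (median 61.9) and 56.5 to 73.99 (median 66.4) CPM in the same order of states (log2FC 0.55 ± 0.08 SE, FDR 8.1e-07, then log2FC 0.61 ± 0.08 SE, FDR 4.86e-08). It was higher in every fit, and the sets gave 0.65 and 0.66 in control myotubes at EPS 3h.

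Mrps6 (chromosome 16, 91854965-91909592, plus strand), also of the small subunit, rose by EPS 3h. It was at 19.6 to 29.9 (median 26.1) CPM in Rest Control, 26.5 to 40.5 (median 31.9) CPM in EPS 0h Control and 27.05 to 56.6 (median 41.4) CPM in EPS 3h Control (log2FC 0.72 ± 0.16 SE, FDR 0.000351). In knockdown myotubes it was at 19.9 to 30.01 (median 24.6), 23.8 to 40.9 (median 31.3) and 32.6 to 49.3 (median 42.8) CPM (log2FC 0.76 ± 0.16 SE, FDR 0.000176 at EPS 3h), where EPS 3h and Rest did not overlap. At EPS 0h the differences, 0.33 (FDR 0.109) and 0.38 (FDR 0.0585), did not pass. Slc5a3 lies on the same strand within the annotated Mrps6 locus, and 17.02% of the exon bases are shared with other genes.

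Mrpl41 (chromosome 2, 24862319-24865956, minus strand), a large-subunit protein, was lower at EPS 3h with either LNA. It was at 16.2 to 23.6 (median 22.7) CPM in Rest Control, 15.2 to 19.5 (median 18.3) CPM in EPS 0h Control and 10.2 to 14.2 (median 12.5) CPM in EPS 3h Control. Rest and EPS 0h overlapped (log2FC -0.25 ± 0.13 SE, FDR 0.133, not passing), and every EPS 3h library was below every library of both (log2FC -0.80 ± 0.13 SE, FDR 4.9e-06 against Rest). Knockdown myotubes had 15.1 to 28.99 (median 24.2), 14.4 to 19.3 (median 15.5) and 9.32 to 13.3 (median 11.7) CPM (log2FC -0.51 ± 0.13 SE, FDR 0.0019 at EPS 0h, log2FC -1.03 ± 0.13 SE, FDR 5.76e-08 at EPS 3h). EPS 3h again lay wholly below EPS 0h. Dph7 and Pnpla7 on the other strand share 42.2% of its exon bases.

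Mrpl55 (chromosome 11, 59093303-59098353, plus strand), another large-subunit protein, was at 13.7 to 18.8 (median 15.7) CPM in Rest Control, 9.16 to 14.5 (median 11.8) CPM in EPS 0h Control and 6.48 to 13.8 (median 8.69) CPM in EPS 3h Control (log2FC -0.44 ± 0.17 SE, FDR 0.0441, then log2FC -0.77 ± 0.18 SE, FDR 0.000364). In knockdown myotubes it was at 11.7 to 17.8 (median 16.6), 5.93 to 12.8 (median 9.39) and 6.35 to 9.04 (median 8.65) CPM (log2FC -0.71 ± 0.17 SE, FDR 0.00114, then log2FC -0.96 ± 0.18 SE, FDR 2.34e-05). EPS 3h and Rest did not overlap in knockdown myotubes and touched in control. Mrps34, of the small subunit, was at 11.01 to 18.1 (median 16.6) CPM in Rest Control and 8.14 to 18.1 (median 10.8) CPM in EPS 3h Control (log2FC -0.43 ± 0.17 SE, FDR 0.0277). Eme2, Nme3 and Mapk8ip3 share 86.05% of its exon bases, so its counts are uncertain, as are those of Mrpl43 (55.3%, shared with Sema4g and Twnk) and Mrps7 (57.8%, with Gga3 and Mif4gd). Mrpl24 fell from 40.8 ± 3.85 to 33.7 ± 2.51 CPM (SD, n = 6; log2FC -0.28 ± 0.08 SE, FDR 0.00495).

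At EPS 0h in control myotubes, 2 members, Mrps2 and Mrpl39, were higher than at Rest (20.5% of all genes were) and 3, Mrpl14, Mrps5 and Mrpl55, were lower (18.4% of all genes). The median was -0.08 against -0.03. Mrpl39, a large-subunit protein, was at 44.7 to 52.2 (median 48.4) CPM at Rest and 50.2 to 66.4 (median 56.8) CPM at EPS 0h (log2FC 0.23 ± 0.09 SE, FDR 0.0424). By library size alone it kept the direction but did not pass, and 1 member was higher and 15 lower. Mrpl14 was at 29.2 to 53.1 (median 41.4) and 24.4 to 30.7 (median 27.9) CPM (log2FC -0.58 ± 0.19 SE, FDR 0.0153), and Mrps5 at 34.3 to 38.2 (median 36.9) and 21.8 to 32.2 (median 27.3) CPM (log2FC -0.43 ± 0.16 SE, FDR 0.035). Mrps5 did not overlap between Rest and EPS 0h, and Mrpl14 did. With the replicate block, 4 were higher and 8 lower. Without replicate 3 of the EPS 3h groups, which share the fit, Mrpl55 did not pass.

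**Figure D3:**
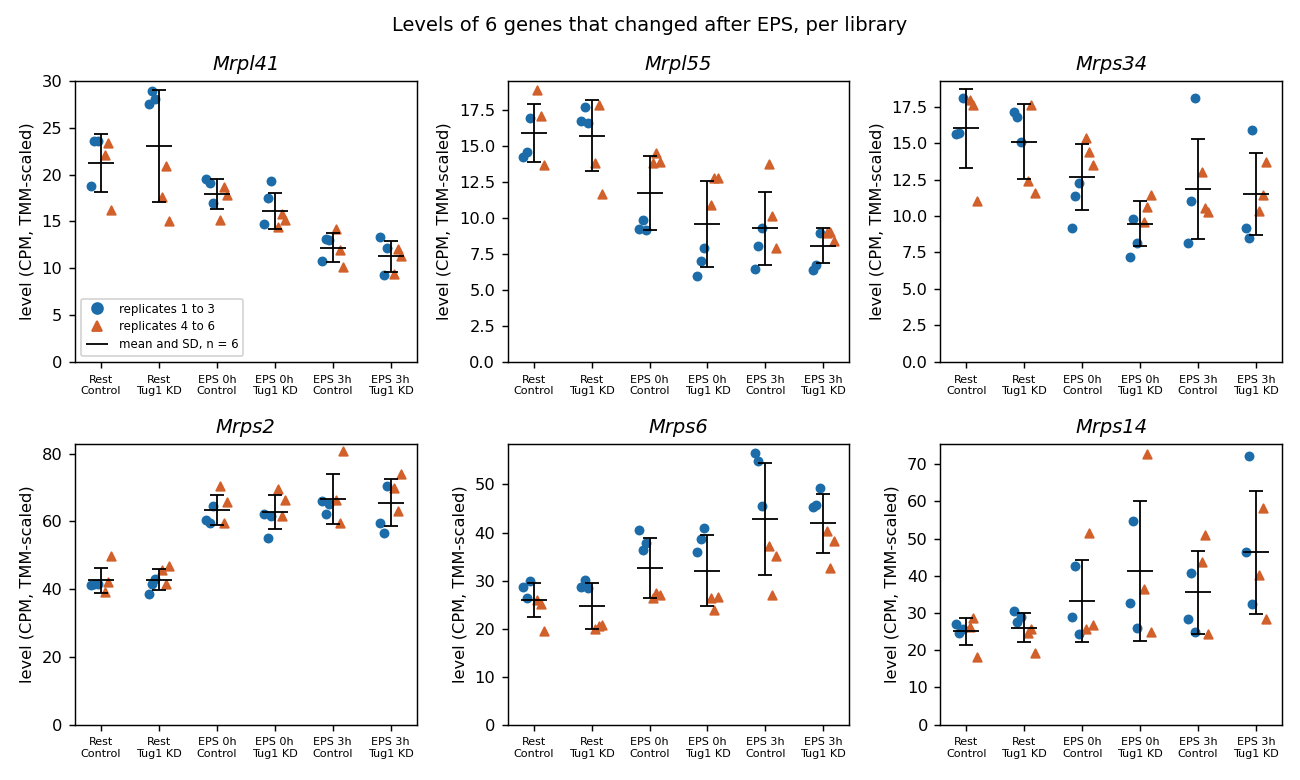
Level of 6 genes (y axis, CPM with TMM scaling, from 0) in each library of the 6 groups (x axis), with replicates 1 to 3 as circles, replicates 4 to 6 as triangles and bars for the mean and SD (n = 6). With either LNA the means of Mrpl41 and Mrpl55 are lower and those of Mrps2 and Mrps6 higher at EPS 3h than at Rest, while Mrps14 spreads from 25.02 to 72.8 CPM in EPS 0h Tug1-KD.

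In Tug1 KD myotubes more of them passed, mainly downward. At EPS 0h, 4 were higher (24.4% of all genes were) and 20 were lower (21.2% of all genes), and at EPS 3h 6 were higher (26.2% of all genes) and 20 were lower (25.9% of all genes). The share of members that were lower was a little above that of all genes at EPS 0h and nearly equal to it at EPS 3h, and the share that were higher was smaller than that of all genes. The median log2FC was -0.19 at EPS 0h (all genes -0.03) and -0.14 at EPS 3h (all genes -0.04). Of the 20 lower genes, 14 were of the large and 6 of the small subunit at each time, out of 48 and 29. Scaling by library size alone gave 2 higher and 36 lower at EPS 0h and 3 higher and 41 lower at EPS 3h. Without replicate 3 of the EPS 3h groups, 4 were higher and 31 lower at EPS 3h, and 2 were higher and 27 lower at EPS 0h, where the fit shares its spread with those libraries.

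Across the time points with knockdown, 4 genes were higher and 12 were lower both times, the comparisons sharing their Rest libraries. The share of all genes called the same way both times was not counted, so this overlap is not shown to be particular to the members. The 4 higher genes were Mrps2, Mrps14, Mrpl39 and Mrpl3. Mrps14, a small-subunit protein, was at 19.3 to 30.5 (median 26.6) CPM in Rest Tug1-KD, 25.02 to 72.8 (median 34.5) CPM in EPS 0h Tug1-KD and 28.4 to 72.3 (median 43.3) CPM in EPS 3h Tug1-KD (log2FC 0.66 ± 0.24 SE, FDR 0.0231, then log2FC 0.83 ± 0.24 SE, FDR 0.00401). EPS libraries of Mrps14 spread widely and overlapped Rest, replicates 2 and 5 standing highest at EPS 0h with either LNA, and 25.4% of its exon bases are shared with Cacybp on the other strand. Mrps17, of the small subunit, was at 31.8 to 48.6 (median 41.4), 36.1 to 47.1 (median 38.9) and 24.96 to 33.9 (median 31.3) CPM in the order Rest, EPS 0h and EPS 3h (log2FC -0.40 ± 0.09 SE, FDR 0.000411 for EPS 3h against Rest). Mrps34 at EPS 0h was at 7.21 to 11.4 (median 9.70) CPM against 11.6 to 17.6 (median 15.9) CPM at Rest, with no overlap (log2FC -0.67 ± 0.17 SE, FDR 0.00144).

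**Figure D4:**
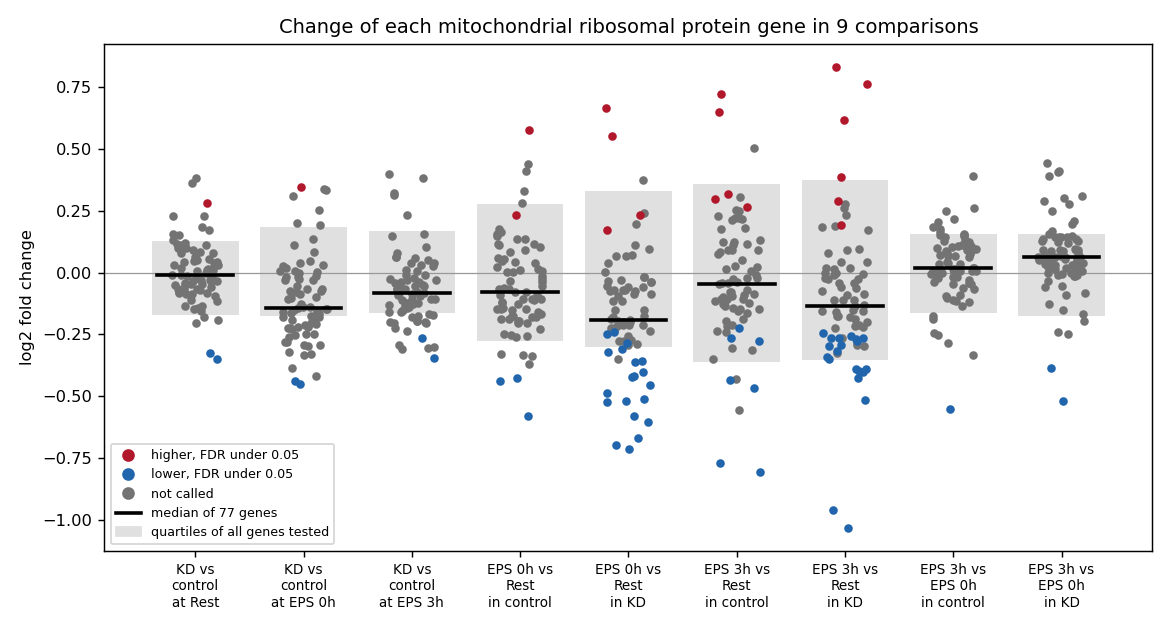
Log2 fold change of each of the 77 genes (points; y axis) in 9 comparisons (x axis), coloured by whether the gene was called at an FDR under 0.05, with the median of the 77 as a line and the interquartile range of all 13995 genes as a grey band. At EPS 0h and EPS 3h against Rest, Tug1 KD has 20 lower genes each (21.2% and 25.9% of all genes were lower). Control myotubes have 3 and 7 (18.4% and 25.9% of all genes). The interaction test called 0 members at either time.

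The 12 genes lower at both times with knockdown were Mrpl2, Mrpl19, Mrpl34, Mrpl40, Mrpl41, Mrpl43, Mrpl48, Mrpl51, Mrpl55, Mrps5, Mrps9 and Mrps34, 9 of them of the large subunit. For the 9 other than Mrpl41, Mrpl55 and Mrps34, the log2FC at EPS 0h lay between -0.58 and -0.24, and at EPS 3h between -0.51 and -0.24. Mrpl19, of the large subunit, was at 26.3 to 35.8 (median 28.97) CPM in Rest Tug1-KD, 19.4 to 25.5 (median 24.6) CPM in EPS 0h Tug1-KD and 18.6 to 29.95 (median 24.7) CPM in EPS 3h Tug1-KD (log2FC -0.32 ± 0.09 SE, FDR 0.00607, then log2FC -0.26 ± 0.10 SE, FDR 0.023). Its libraries did not overlap at EPS 0h and overlapped at EPS 3h, against Rest. In control myotubes the same gene was at 28.8 to 34.95 (median 31.6), 25.8 to 29.02 (median 28.1) and 23.5 to 30.8 (median 26.6) CPM, with differences from Rest of -0.18 (FDR 0.137) and -0.21 (FDR 0.0555) that did not pass. Mrpl14, lower at EPS 0h with either LNA, was at 26.99 to 48.5 (median 41.3) CPM in Rest Tug1-KD and 19.2 to 27.9 (median 24.4) CPM in EPS 0h Tug1-KD (log2FC -0.70 ± 0.19 SE, FDR 0.00331), and at EPS 3h its difference was -0.29 (FDR 0.204). Mrps21, a small-subunit protein, passed at EPS 0h, going from 47.3 ± 9.60 to 32.9 ± 4.51 CPM (SD, n = 6; log2FC -0.52 ± 0.14 SE, FDR 0.00305), with 40.6 ± 7.95 CPM and a difference of -0.22 (FDR 0.198) at EPS 3h, which did not pass. Whether EPS 0h and EPS 3h differ for it was tested directly and gave 0.30 (FDR 0.162). Genes lower at EPS 3h but not called at EPS 0h were Mrps17, Mrps31, Mrps35, Mrpl16, Mrpl24, Mrpl36, Mrpl44 and Mrpl50. Mrps35 was at 17.9 to 22.6 (median 20.2) CPM in Rest Tug1-KD and 12.1 to 18.05 (median 16.4) CPM in EPS 3h Tug1-KD (log2FC -0.34 ± 0.09 SE, FDR 0.00141). Its EPS 0h value lay between them, with a median of 17.8 CPM.

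Between EPS 0h and EPS 3h little changed. In control myotubes none was higher (9.67% of all genes were) and 1, Mrpl41, was lower (6.88% of all genes). With knockdown none was higher (8.59% of all genes) and 2, Mrps17 and Mrpl41, were lower (7.13% of all genes). At an unadjusted p under 0.05, 2 were higher in control and 6 in knockdown myotubes, and DESeq2 and limma-voom called 0 higher in either. Mrpl41 gave log2FC -0.55 ± 0.13 SE, FDR 0.00306 in control and log2FC -0.52 ± 0.14 SE, FDR 0.00601 in knockdown myotubes, and Mrps17 log2FC -0.39 ± 0.09 SE, FDR 0.00293. The median of the 77 was 0.02 in control (all genes -0.01) and 0.06 in knockdown myotubes (all genes -0.02). With the replicate block (deviations of same-numbered wells correlated above 0.1 in knockdown myotubes), 2 were higher and 3 lower there.

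Whether the response to EPS differed between the LNAs was tested directly by an interaction term. At EPS 0h, 0 members were higher (0% of all genes) and 0 were lower (0% of all genes), and at EPS 3h 0 were higher (0.00715% of all genes, a single gene) and 0 lower (0% of all genes). No member had an unadjusted p under 0.05 in either, and DESeq2 and limma-voom also called 0. The larger number of lower genes in knockdown myotubes is therefore not shown to differ from that in control myotubes. For Mrpl41 the response at EPS 3h differed by -0.23 on the log2 scale (95% interval -0.60 to 0.14, 1.96 SE each side), and for Mrps2 by -0.03 (-0.25 to 0.19). The median interaction of the 77 was -0.10 at EPS 0h and -0.07 at EPS 3h, against 0.01 and 0.00 over all genes. Its sign differed between the sets: -0.22 in replicates 1 to 3 and 0.03 in replicates 4 to 6 at EPS 0h, then -0.27 and 0.16 at EPS 3h.

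The libraries numbered 1 to 3 and 4 to 6 gave different results in part, and tests between them were added after the data were seen. In Rest Tug1-KD, 0 members were higher in replicates 4 to 6 than in 1 to 3 (6.39% of all genes were) and 23 were lower (5.38% of all genes), with a median of -0.31 against 0.02 over all genes. In Rest Control 1 was higher (8.53% of all genes) and 4 were lower (9.74%). The sets also differed within the EPS groups: at EPS 0h, 5 were higher (15.5%) and 13 lower (16.4%) in control and 8 higher (17.9%) and 11 lower (14.1%) in knockdown myotubes. At EPS 3h, 0 were higher (9.5%) and 16 lower (8.91%) in control, with a median of -0.16 against -0.02 over all genes, and 0 higher (9.25%) and 7 lower (7.05%) in knockdown myotubes. Mrpl41 was at 27.5 to 28.99 CPM in Rest Tug1-KD replicates 1 to 3 and 15.1 to 20.9 CPM in replicates 4 to 6 (log2 difference -0.66, FDR 0.00352). The median effect of knockdown at Rest was 0.14 in the first set and -0.16 in the second. For EPS 0h in knockdown myotubes, replicates 1 to 3 alone gave 4 higher and 35 lower members and replicates 4 to 6 alone 1 higher and 0 lower, with medians of -0.27 and -0.02. The difference between the sets in that response was itself tested: 6 members responded less negatively in replicates 4 to 6 (3.93% of all genes differed in that direction) and 0 more negatively (2.53% of all genes). These were Mrps25, Mrps12, Mrpl55, Mrpl36, Mrpl2 and Mrpl21. No member differed between the sets in the other 10 comparisons. At EPS 3h with knockdown, replicates 1 to 3 alone gave 6 higher and 27 lower and replicates 4 to 6 alone 6 higher and 5 lower. In control myotubes at EPS 3h, replicates 1 to 3 alone gave 15 higher and 5 lower and replicates 4 to 6 alone 2 higher and 10 lower. All members called with 6 replicates in the 9 comparisons between groups had the same sign in both sets. The sets are the same libraries that gave the calls, so this is no separate check. Of the calls for EPS 0h and EPS 3h against Rest, replicates 1 to 3 alone kept 22 of 24 and 24 of 26 with knockdown. In control myotubes they kept 5 of 5 and 7 of 12. Replicates 4 to 6 alone kept 1 of 24 and 9 of 26 with knockdown, and 1 of 5 and 7 of 12 in control. The share of all genes called in the fits of either set alone was not counted. Counts from those fits are thus not set against a background.

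**Figure D5:**
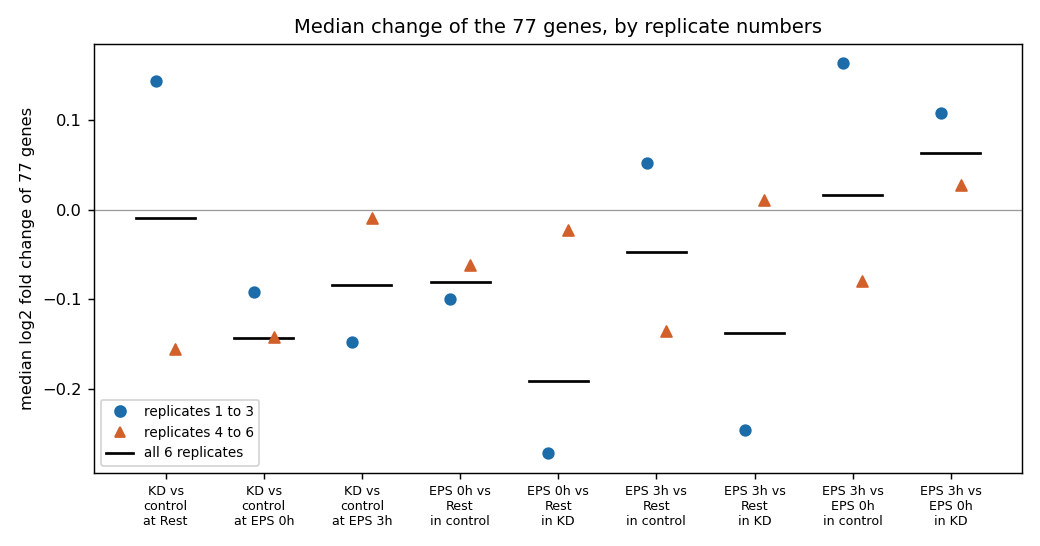
Median log2 fold change of the 77 genes (y axis) in 9 comparisons (x axis), from replicates 1 to 3 (circles), replicates 4 to 6 (triangles) and all 6 replicates (lines). The circle and triangle lie on opposite sides of 0 for knockdown at Rest (0.14 and -0.16), for EPS 3h against Rest with either LNA and for EPS 3h against EPS 0h in control myotubes.

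Other transcripts moved across the same libraries. The summed cytosolic ribosomal proteins (78 genes, S6 kinases and Rps19bp1 left out) were at 32042 to 34467 CPM in Rest Tug1-KD replicates 1 to 3 and 21454 to 33762 CPM in replicates 4 to 6. Their median knockdown effect at Rest was 0.19 in the first set and -0.22 in the second, the same signs as for the mitochondrial ones. After EPS 3h in control myotubes, 14 of the 78 were higher (26.1% of all genes were) and 0 lower (25.9%), with a median of 0.18 that was 0.46 in the first set and -0.06 in the second. The mitochondrial medians were -0.05 with all libraries and 0.05 and -0.13 in the sets. The 4 reserve or fibroblast-like markers (Col1a1, Col3a1, Postn and Dcn) summed to 2551 to 3572 CPM in Rest Control and 2024 to 2688 CPM in EPS 3h Control, and to 2675 to 3274 CPM in Rest Tug1-KD and 1896 to 2440.0 CPM in EPS 3h Tug1-KD. All 4 were detected in every library, and they did not all fall. At EPS 3h against Rest in control myotubes, 1 of the 4 was higher (26.1% of all genes) and 2 were lower (25.9%). With knockdown 0 were higher (26.2% of all genes) and 2 were lower (25.9%). The 12 myotube markers summed to 14263 to 19014, 14615 to 20734, 15070.4 to 20701 and 13947 to 19387 CPM in the same order. The 8 proliferation and myoblast markers summed to 169 to 206, 143 to 204, 144 to 179.7 and 145 to 221 CPM, with none averaging under 1 CPM. The part of these shifts in the results above was not tested.

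Of 12 members picked for a known role or as paralogs, 6 passed in at least 1 comparison between groups (Mrpl41, Mrps34, Mrps36, Mrpl28, Mrps7 and Mrps18b) and 6 passed in none. The share of all genes passing in at least 1 was not counted. Mrpl12, whose protein also binds the mitochondrial RNA polymerase, was at 60.4 to 90.9 (median 65.3) CPM in Rest Control and 57.2 to 83.7 (median 78.1) CPM in Rest Tug1-KD (log2FC 0.04 ± 0.15 SE, FDR 0.921), and at 52.1 to 86.8 (median 63.9) CPM in EPS 3h Control (log2FC -0.12 ± 0.15 SE, FDR 0.536 against Rest). Mrpl58, a peptidyl-tRNA hydrolase built into the large subunit, was at 20.6 to 30.002 (median 24.99) and 17.5 to 32.02 (median 21.9) CPM in Rest and EPS 3h Control (log2FC -0.14 ± 0.14 SE, FDR 0.41). Mrpl28 and Mrps36 were lower at EPS 0h in knockdown myotubes (log2FC -0.36 ± 0.14 SE, FDR 0.034, and log2FC -0.31 ± 0.12 SE, FDR 0.0309), from 58.4 ± 7.92 to 45.4 ± 7.69 CPM and from 17.2 ± 2.73 to 13.9 ± 1.13 CPM (SD, n = 6 each). Mrps12, a small-subunit protein near the decoding site, was at 27.3 ± 2.40 CPM in Rest Control and 24.1 ± 3.41 CPM in Rest Tug1-KD (log2FC -0.18 ± 0.17 SE, FDR 0.634), and Mrps30 at 20.4 ± 5.01 and 19.8 ± 2.32 CPM (log2FC -0.05 ± 0.13 SE, FDR 0.9). Mrps7 rose at EPS 3h in control myotubes, being at 57.2 to 68.3 (median 62.8) CPM at Rest and 65.2 to 106 (median 70.6) CPM after EPS, the highest library being replicate 3 (log2FC 0.27 ± 0.11 SE, FDR 0.0393).

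The S18 family has 3 members that take different places in the particle. Mrps18a was at 47.8 ± 3.32 CPM in Rest Control and 46.3 ± 6.60 CPM in EPS 3h Control (log2FC -0.05 ± 0.11 SE, FDR 0.741). Mrps18b was at 12.9 to 15.1 (median 13.9) CPM in Rest Tug1-KD and 12.98 to 20.7 (median 19.5) CPM in EPS 3h Tug1-KD (log2FC 0.38 ± 0.16 SE, FDR 0.038), and in control myotubes its EPS 3h difference was 0.25 (FDR 0.186). Mrps18c was at 1.40 to 6.74 (median 4.90) CPM in Rest Control and 2.06 to 11.4 (median 3.68) CPM in EPS 3h Control (log2FC 0.30 ± 0.47 SE, FDR 0.612), with 33 to 134 counts per library at Rest and 84.3% of its exon bases shared with Helq, Abraxas1 and another gene. Only Mrps18b passed, in knockdown myotubes at EPS 3h. In all, 39 of the 77 passed in at least 1 of the 9 comparisons between groups and 38 in none. The share of all genes passing in at least 1 was not counted, so these counts are not set against a background. At EPS 3h in control myotubes alone, 26.1% of all genes were higher and 25.9% lower. Counts of genes with processed pseudogenes of their own name are uncertain too: rows for Mrpl27-ps and Mrpl48-ps averaged 12.3 and 3.66 CPM.

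Genes that build and serve the ribosome were counted at EPS 3h against Rest, where 26.1% of all genes were higher and 25.9% lower in control myotubes and 26.2% and 25.9% with knockdown. Of 28 assembly and rRNA-modification genes tested, 3 were higher and 14 lower at EPS 3h in control myotubes (median -0.31) and 3 higher and 14 lower with knockdown (median -0.38), a share below that of all genes for the higher and above it for the lower genes. Ddx28, an RNA helicase of large-subunit assembly, was at 14.3 to 20.9 (median 16.5) CPM in Rest Control and 6.09 to 9.49 (median 7.01) CPM in EPS 3h Control, without overlap (log2FC -1.22 ± 0.15 SE, FDR 9.14e-09). Fastkd2, an RNA-binding assembly factor, rose, being at 17.05 to 18.8 (median 17.8) CPM at Rest and 29.6 to 53.4 (median 32.4) CPM at EPS 3h (log2FC 1.08 ± 0.17 SE, FDR 3.12e-06). Among 16 translation factors, 3 were higher and 6 lower in control (median -0.09) and 3 and 5 in knockdown myotubes (median -0.18), shares within a few genes of those of all genes. Mtfmt, which formylates the initiator methionyl-tRNA, was at 7.76 to 9.26 (median 8.51), 4.46 to 6.46 (median 5.47) and 1.65 to 3.92 (median 2.81) CPM in control myotubes at Rest, EPS 0h and EPS 3h, each state wholly below the one before (log2FC -1.59 ± 0.16 SE, FDR 2.84e-10 at EPS 3h against Rest).

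Of 22 genes for charging mitochondrial tRNAs, 3 were higher and 9 lower at EPS 3h in control (median -0.20) and 4 and 10 in knockdown myotubes (median -0.09), set against the same shares of all genes. Pars2, the prolyl-tRNA synthetase, was at 3.57 to 6.22 (median 5.19) CPM in Rest Control and 1.05 to 1.89 (median 1.45) CPM in EPS 3h Control (log2FC -1.78 ± 0.21 SE, FDR 6.78e-09). Nars2, the asparaginyl-tRNA synthetase, was at 34.3 to 41.4 (median 38.9) CPM at Rest and 55.95 to 85.1 (median 73.1) CPM at EPS 3h (log2FC 0.90 ± 0.10 SE, FDR 3.88e-09). Neither overlapped between Rest and EPS 3h, and they moved in opposite directions. Of 5 ribosomal proteins under other names, Ptcd3 was higher at EPS 3h with either LNA (log2FC 0.44 ± 0.11 SE, FDR 0.00123 in control myotubes), and Dap3, Chchd1, Aurkaip1 and Gadd45gip1 did not pass there. At EPS 0h against Rest with knockdown, Gadd45gip1 was lower (log2FC -0.55 ± 0.23 SE, FDR 0.0494), with a median of only 2.97 CPM at Rest. Knockdown at Rest changed Trub2, a pseudouridine synthase (log2FC 0.38 ± 0.07 SE, FDR 0.000373), and Gfm2, which acts in ribosome recycling (log2FC 0.28 ± 0.09 SE, FDR 0.0356), among the 71 genes of these 4 lists. Of all genes tested, 5.54% were higher and 4.47% lower in that comparison. After EPS, Trub2, Gfm2 and Ybey were higher with knockdown at both times, and Nars2 only at the earlier one. Other list genes were lower: Nsun4 and Gatc both times, Rpusd3, Cars2 and Oxa1l only at EPS 0h, Grsf1, Qrsl1 and Mrm1 only after recovery. The shares of all genes were 8.25% (higher) and 6.07% (lower) for the earlier time, then 6.38% and 5.11% for the later.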

How the data were processed

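RNA was sequenced from 36 wells of C2C12 myotubes, 6 per group, with 1 well per library. Each group drew several wells from each of 2 independent experiments, so its 6 wells are not 6 independent units. The p-values measure the spread between wells of 1 cell line, and the main fit had no term for the experiment. Polyadenylated RNA entered a stranded kit. The submitters' processing notes name FastQC 0.11.7, fastp 0.14.1 and STAR 2.5 and the build GRCm39, while the counting program and its strand setting are not given in the sources used here. The deposited values are raw whole-number counts per gene, and the 36 per-sample files were identical to the columns of the matrix. No per-sample column was left unmapped. Rows with no gene name (1492, holding 0.0327% of counts) were kept in the fit.

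From these counts, genes with at least 1 CPM in at least 12 libraries (13995 of 55416) were scaled by TMM and fitted over all 6 groups with edgeR 4.0.16 (quasi-likelihood test, R 4.3.3), with Benjamini-Hochberg adjustment over all genes and a threshold of 0.05. Same-group libraries differed by more than sampling noise (lowest chi-square per degree of freedom 3.98 over 90 pairs), so none was a copy of another. Each was entered as 1 library, which does not make wells of 1 experiment independent. The main fit used no pairing, and the replicate number entered only as a block in an alternative fit. Wells were described as paired by number where every same-numbered pair of deviations from group means correlated above 0.1 over all genes. This held for knockdown at EPS 0h and EPS 3h, EPS 0h with either LNA, EPS 3h in control myotubes and EPS 3h against EPS 0h with knockdown. In that order, 6, 2, 2 (control), 3 (knockdown), 5 and 4 of 6 wells correlated best with their own number. The rule does not compare wells of other numbers, so it cannot separate pairing by number from a difference between the sets. The pairing comes from the data and the shared numbers, since the labels do not say what a number stands for.

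Members and gene lists were chosen with earlier results of these data known. Named genes were the 3 members with the smallest FDR in each direction, the 2 extremes in each direction of 2 comparisons (EPS 3h against Rest in control, knockdown at Rest), the 2 highest and 2 lowest per kilobase, 12 members with a known role, and up to 3 genes per pathway list. Other members are named where a count of 7 or fewer is spelled out or where a group of calls is listed, chosen after their values were seen. Alternatives were DESeq2 1.42.0, limma-voom (limma 3.58.1), library-size scaling, no filter, a replicate block, a block for replicates 1 to 3 against 4 to 6, each of these sets alone and, chosen after seeing the data, upper-quartile factors, a fit without replicate 3 of the EPS 3h groups and a test of the difference between the sets. The scripts were tested on simulated data.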

Additional observations from a re-analysis of the deposited data

Results flagged for a closer look

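In groups of 6 libraries a value was set apart where its gap to the nearest other exceeded 0.625 of the group's range (Dixon's 95% limit), which chance gives in about 1 in 20 groups, and 8 of 162 groups tested met it. Replicate 6 of Rest Control was high for Mrps2 (49.6 CPM, the nearest other 42.1) and low for Mrps34 (11.0 CPM, nearest 15.6). The other 6 were high values in EPS 3h Control. Replicate 3 stood apart for Mrpl14 (53.9 CPM, nearest 29.1), Mrps36 (21.997 CPM, nearest 17.4) and Mrps7 (105.6 CPM, nearest 73.4), and it was also the library with the highest summed level of its group. Replicate 2 stood apart for Mrpl35 (23.8 CPM, nearest 19.5) and Mrps35 (22.3 CPM, nearest 19.3), and replicate 6 for Mrps2 (80.8 CPM, nearest 66.2).

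The response to EPS 0h in Tug1 KD myotubes differed between replicates 4 to 6 and replicates 1 to 3 for 6 members by edgeR's quasi-likelihood test of the difference. On the log2 scale the second set lay above the first by 1.04 for Mrpl55 (FDR 0.02321), 0.94 for Mrps25 (FDR 0.02425), 0.89 for Mrps12 (FDR 0.04129), 0.79 for Mrpl2 (FDR 0.04999), 0.67 for Mrpl36 (FDR 0.03435) and 0.58 for Mrpl21 (FDR 0.03588). For Mrpl2 the FDR lies at the threshold.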

How the results depend on the processing

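No called member changed sign in any of the 10 alternatives, each fitted to some or all of the same libraries. The median of the 77 did in several: for knockdown at Rest it was -0.01 in the report, 0.14 in replicates 1 to 3, 0.02 without a filter and 0.01 without EPS 3h replicate 3, and the sets differed in sign for EPS 3h with either LNA, EPS 3h against EPS 0h in control and both interactions. For EPS 3h against EPS 0h it was also below 0 by library size (-0.08 in control, -0.02 with knockdown), without a filter (-0.05 and -0.02) and, in control, without EPS 3h replicate 3 (-0.04). Counts below are members higher and lower with all comparisons not named staying within 1.5 times of the report's counts. The share of all genes called in each alternative was not counted, so they have no background beside them. With the replicate block, knockdown gave 3 higher at Rest, 4 and 9 at EPS 0h, then 3 and 7 at EPS 3h, EPS 0h gave 4 and 8 in control, EPS 3h gave 9 and 15 in control, and EPS 3h against EPS 0h gave 1 and 2 in control and 2 higher with knockdown, the wells sharing only a number for knockdown at Rest, EPS 3h against EPS 0h in control and EPS 3h with knockdown. The block lost no call. A block for the 2 sets gave 3 higher at Rest, 4 and 4 at EPS 0h, then 3 and 6 at EPS 3h for knockdown, 7 lower for EPS 0h in control, 8 and 14 for EPS 3h in control, and 1 and 2 (control) and 2 higher (knockdown) for EPS 3h against EPS 0h. DESeq2 gave 1 and 4 for knockdown at EPS 3h and 2 lower for EPS 3h against EPS 0h in control, and limma-voom 11 lower for EPS 3h in control. Library-size scaling gave 4 lower at EPS 0h and 5 lower at EPS 3h for knockdown, 1 and 15 (EPS 0h), then 2 and 32 (EPS 3h) in control, 2 and 36 (EPS 0h), then 3 and 41 (EPS 3h) with knockdown, and 2 and 5 lower for EPS 3h against EPS 0h in control and with knockdown. Upper-quartile factors gave 6 lower for knockdown at EPS 0h, 1 higher at EPS 0h and 13 lower at EPS 3h in control, and 2 and 31 at EPS 0h with knockdown. Without a filter, knockdown gave 0 and 0 at Rest, 0 higher at EPS 0h, then 0 lower at EPS 3h, EPS in control gave 1 and 1 at EPS 0h, then 2 and 11 at EPS 3h, and EPS with knockdown gave 1 higher at EPS 0h and 3 higher at EPS 3h. Replicates 1 to 3 alone gave 0 lower at Rest, 0 and 0 at EPS 0h, then 1 lower at EPS 3h for knockdown, 9 and 12 at EPS 0h, then 15 higher at EPS 3h in control, 2 higher for EPS 3h against EPS 0h in control, and 35 lower at EPS 0h with knockdown. Replicates 4 to 6 alone gave 2 and 5 at Rest, 4 higher at EPS 0h, then 2 and 0 at EPS 3h for knockdown, 1 and 1 at EPS 0h, then 2 higher at EPS 3h in control, 1 and 0 at EPS 0h, then 5 lower at EPS 3h with knockdown, and 1 and 0 for EPS 3h against EPS 0h with knockdown. Without EPS 3h replicate 3, knockdown gave 1 lower at Rest and 1 lower at EPS 3h, EPS 3h gave 14 lower in control, and with knockdown EPS 0h gave 2 higher and EPS 3h 31 lower. The cause of these changes was not tested. Library-size scaling, which shifted the median of all genes by up to 0.17 on the log2 scale, kept 4 of 5 and 9 of 12 calls (EPS 0h and EPS 3h in control) and 22 of 24 and 23 of 26 (with knockdown), its larger counts being added lower genes. Interactions gave 0 members in every alternative, with a median SE near 0.17 that limits what could be seen.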
